A study of Mus musculus with 4 samples.

Results

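The microRNAs of the Clcn5 cluster were followed in whole mouse embryos with a knockout (KO) of ER-alpha, the estrogen receptor that Esr1 encodes, and in wild-type embryos. The cluster was taken by name, as every assay for miR-188, miR-362, miR-500, miR-501, miR-532 or miR-660, in either arm and for mouse (mmu) or rat (rno) sequences. This found 8 of the 375 microRNA assays read in all samples, of which 7 carry mouse names and 1 a rat name. They are mmu-miR-188-3p, mmu-miR-188-5p, mmu-miR-362-3p, mmu-miR-500, mmu-miR-501-3p, mmu-miR-532-3p, mmu-miR-532-5p and rno-miR-532-5p, and no assay was named miR-660. The samples were total RNA of C57BL/6 embryos at E18.5, with the ER-alpha KO genotype in 2 samples and the wild-type genotype in 2. The labels do not give the knockout allele, the sex of the embryos, or how many embryos made up a sample, so any spread between replicates may be technical. Each assay gave a threshold cycle (Ct) from TaqMan real-time PCR, the cycle at which its signal crosses a threshold. More RNA gives a lower Ct, and 1 cycle stands for about a doubling. The members were chosen by their values in the comparison of genotypes as well as by name: mmu-miR-188-5p was higher, and rno-miR-532-5p lower, in ER-alpha KO than in wild-type embryos in these same data. The choice also named mmu-miR-532-5p. Differences between the genotypes are therefore described here. The detected members were part of a test over all assays, and no separate test of the members was run.

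MicroRNAs are short RNAs cut from hairpin precursors, and 1 hairpin can yield a mature RNA from its 5′ arm (5p) and another from its 3′ arm (3p). The seed, bases 2 to 8 of the mature RNA, does most of the pairing with target messenger RNAs. The hairpins of this cluster lie in an intron of Clcn5, whose product is the chloride/proton exchanger ClC-5, known from endosomes of the kidney proximal tubule and from Dent disease in humans. Hairpins that share a host transcript can be cut from the same RNA, but mature levels also depend on the processing and decay of each microRNA. The host transcript was not measured here.

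RefSeq (GRCm38.p6) held 5 hairpins of the cluster, all on the minus strand of chromosome X and all inside Clcn5 (chrX:7153810-7319358, also on the minus strand). In the direction of transcription the order was Mir532 (chrX:7248402-7248497), Mir188 (chrX:7247989-7248056), Mir362 (chrX:7241982-7242046), Mir501 (chrX:7241243-7241351) and Mir500 (chrX:7237683-7237774), over 10815 bases in all. Mir532 and Mir188 were 345 bases apart, Mir362 and Mir501 630 bases, and the gap between Mir188 and Mir362 was 5942 bases. Mature sequences of the same name were found for 5 of the assays. They are printed with the seed in capitals because the seeds group the members, in the same 5′ to 3′ order along the transcript.
mmu-miR-532-3p: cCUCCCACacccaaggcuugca
mmu-miR-188-5p: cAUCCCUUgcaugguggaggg
mmu-miR-188-3p: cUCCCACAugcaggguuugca
mmu-miR-362-3p: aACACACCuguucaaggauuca
mmu-miR-501-3p: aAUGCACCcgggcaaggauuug
mmu-miR-500-3p: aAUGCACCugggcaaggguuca
The last sequence is shown for comparison, since the assay mmu-miR-500 names no arm. The 3p arms of miR-501 and miR-500 shared the seed AUGCACC and 18 of 22 bases. Counted from the 5′ end of mmu-miR-501-3p, the differences in mmu-miR-500-3p were C9U, A18G, U21C and G22A, all outside the seed. The seed of mmu-miR-362-3p differed from that of mmu-miR-501-3p at U3C and G4A, and 15 of their 22 bases were the same. The 3p arms of the neighbours miR-532 and miR-188 had the run CUCCCACA in common, set 1 base apart, so their seeds overlapped without being equal. The seeds of mmu-miR-188-5p and mmu-miR-362-3p were held by no other mature sequence of the cluster in that table.

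Counting an assay as detected up to a Ct of 35, 260 and 259 microRNAs were found in ER-alpha KO replicates 1 and 2, against 290 and 254 in wild-type replicates 1 and 2. The tested set was the 229 detected in all samples. A level is given as minus the Ct after centring each sample on the median of those 229, in log2 units. All 12 assays on a list of microRNAs typical of liver, brain, striated muscle, endothelium, kidney and gut, and epithelium were detected in all 4 samples. Wild-type replicate 1 stood apart. Its levels had Pearson correlations over the 229 assays of 0.939 to 0.954 with the other samples, which had 0.978 to 0.989 with each other, and assays are not independent replicates. All 380 of its wells other than U6 carried a shared constant of 0.273, and with that taken off the 7 detected cluster wells lay within 0.056 of a whole cycle. Its Ct values were later than the mean of the other samples for 214 of the 229 assays, by a median of 1.60 cycles. The fold change of each member is therefore given with and without that sample.

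Of the 8 cluster assays, 7 were detected in all 4 samples and mmu-miR-188-3p did not amplify in any of them. In whole-embryo RNA, fewer cells of a type and less RNA per cell cannot be told apart. The earliest Ct was that of mmu-miR-532-5p, at 25.0 and 25.1 in ER-alpha KO embryos, against 27.3 and 24.9 in wild-type embryos. Its sister arm mmu-miR-532-3p came up at 29.5 and 28.5 in ER-alpha KO samples, against 30.2 and 28.0 in wild-type samples. The 5p arm was thus the earlier of the pair in every sample. The gap from 5p to 3p was 4.56 and 3.37 cycles in ER-alpha KO samples, against 2.96 and 3.12 in wild-type samples. The gap was wider in both knockout samples, but the 2 knockout values lay 1.19 cycles apart, and the smaller stood 0.25 cycles above the nearer wild-type value. Assays differ in efficiency, so a gap between assays is not a ratio of molecules.

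The next assays along the transcript were those of miR-188, whose 5p arm has been linked in mice to the choice of bone marrow stromal cells between bone and fat. The Ct of mmu-miR-188-5p was 29.2 and 27.8 in ER-alpha KO embryos, against 32.2 and 28.4 in wild-type embryos. Wild-type replicate 1 was the late sample, 3.78 cycles after the mean of the other 3, while those 3 spanned 1.39 cycles. Set against the neighbouring mmu-miR-532-5p in the same sample, it came 4.20 and 2.67 cycles later in ER-alpha KO samples and 4.95 and 3.48 cycles later in wild-type samples. Those ranges overlapped. The 3p arm of the same hairpin, with no amplification in any of the 4 samples, gave no level, so the arms of miR-188 can be compared only in that 1 arm was read.

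The downstream hairpins gave later mean Ct values, although in wild-type replicate 1 mmu-miR-188-5p came after mmu-miR-501-3p and mmu-miR-500. For mmu-miR-362-3p they were 31.1 and 31.1 in ER-alpha KO samples, against 33.2 and 31.4 in wild-type samples. For mmu-miR-501-3p, a microRNA studied in mouse muscle progenitors and in neuronal dendrites, they were 31.4 and 30.8 in ER-alpha KO samples, against 31.3 and 30.8 in wild-type samples. For mmu-miR-500 they were 31.6 and 31.2 in ER-alpha KO samples, against 31.2 and 30.6 in wild-type samples. The uncentred Ct of miR-501-3p and that of miR-500 stayed within 0.573 and 0.929 cycles over all samples, although the other mouse assays of the cluster spanned 2.14 to 4.45 cycles. In centred levels they were not the steadiest, with spans of 1.39 and 1.37 log2 units. Those of mmu-miR-532-3p (0.69), mmu-miR-362-3p (1.09) and mmu-miR-532-5p (1.27) were smaller, and that of mmu-miR-188-5p (3.04) was larger.

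**Figure D1:**
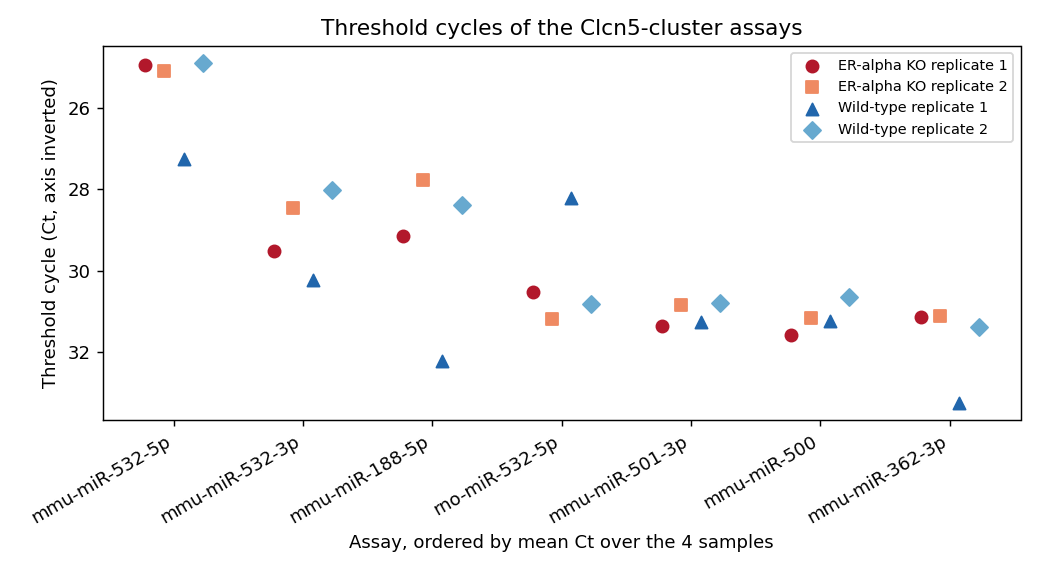
Threshold cycle (Ct, inverted axis, so that more RNA is higher) of the 7 detected cluster assays, with 1 point per sample for 2 ER-alpha KO and 2 wild-type embryo samples. Wild-type replicate 1 (dark blue triangles) is the lowest point for mmu-miR-532-5p (27.3), mmu-miR-532-3p (30.2), mmu-miR-188-5p (32.2) and mmu-miR-362-3p (33.2), and the highest for rno-miR-532-5p (28.2).

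In order of mean Ct over the 4 samples, mmu-miR-532-5p (25.6) was followed by mmu-miR-532-3p (29.1), mmu-miR-188-5p (29.4), rno-miR-532-5p (30.2), mmu-miR-501-3p (31.1), mmu-miR-500 (31.2) and mmu-miR-362-3p (31.7). Without wild-type replicate 1, mmu-miR-188-5p (28.4) came before mmu-miR-532-3p (28.7), and the others kept their places. The step from mmu-miR-532-5p to mmu-miR-532-3p was seen in 4 of 4 samples, and the Ct ranges of these assays did not overlap. From mmu-miR-188-5p to rno-miR-532-5p the order held in 3 of 4 samples. Each of the other neighbouring pairs kept its order in 2 of 4 samples, so those neighbours did not differ beyond their spread. Among the 229 tested assays, mmu-miR-532-5p ranked 49 and 51 by level in ER-alpha KO samples, against 74 and 54 in wild-type samples. The ranks of mmu-miR-362-3p were 188 and 186 in ER-alpha KO samples, against 206 and 206 in wild-type samples.

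The rat-named assay of miR-532-5p was the member whose centred level spanned most between samples, 4.47 log2 units, while in uncentred Ct mmu-miR-188-5p spanned more (4.45 against 2.97 cycles). Its Ct was 30.5 and 31.2 in ER-alpha KO embryos, against 28.2 and 30.8 in wild-type embryos. In wild-type replicate 1 it came up 2.63 cycles before the mean of the other samples, and the remaining 6 detected cluster assays came up later there. Only 15 of the 229 tested assays (6.55%) were earlier in that sample than in the mean of the other 3.

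The mouse and rat assays of miR-532-5p therefore went opposite ways in that sample. The choice of the cluster named both assays, so this is a description. The sequences behind them were not compared, since no mature sequence of either name was found. The rat assay trailed the mouse assay by 5.57 and 6.09 cycles in ER-alpha KO samples, against 0.950 and 5.91 cycles in wild-type samples. Over the 3 samples other than wild-type replicate 1 the gap was 5.86 ± 0.27 cycles (SD, n = 3), and in wild-type replicate 1 it departed from that mean by -4.91 cycles. The panel read 16 microRNAs with both a mouse-named and a rat-named assay, of which 6 had both assays detected in all 4 samples. In the other 5, miR-1, miR-224, miR-339-3p, miR-351 and miR-381, the gap in wild-type replicate 1 lay within 0.689 cycles of the mean of the other samples. The gaps of these 5 spanned up to 1.21 cycles among the other 3 samples. Between the genotypes the mean gap of miR-532-5p was 5.83 ± 0.37 cycles in ER-alpha KO and 3.43 ± 3.51 cycles in wild-type embryos (SD, n = 2 each), a difference that lay within the spread of the wild-type samples. Each of these assays had 1 well per sample, so the spread between wells of the same sample is not known for them.

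**Figure D2:**
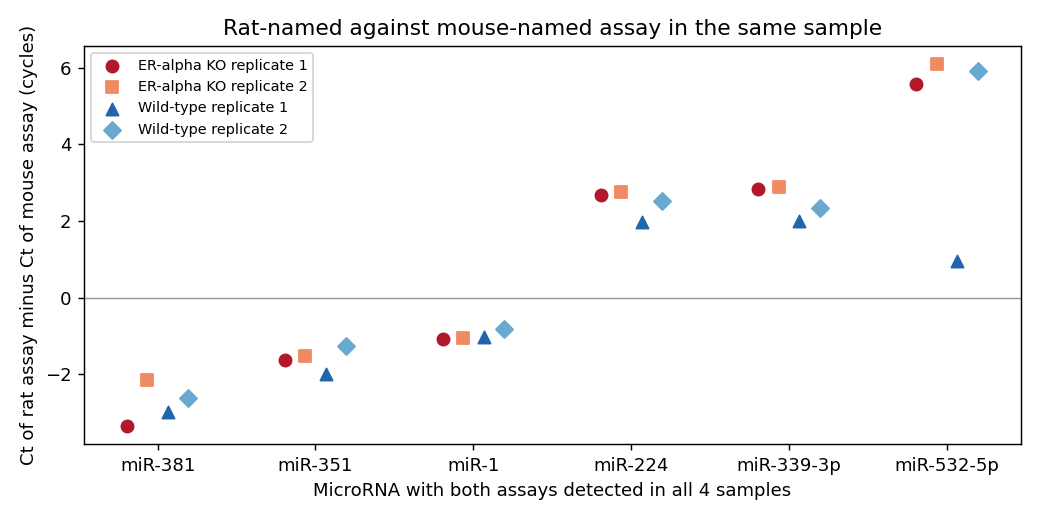
Ct of the rat-named assay minus Ct of the mouse-named assay in the same sample (cycles) for the 6 microRNAs with both assays detected in all samples, 1 point per sample. For miR-532-5p wild-type replicate 1 stands at 0.950 cycles and the other samples at 5.57 to 6.09; in the other 5 microRNAs that sample lies within 0.689 cycles of the mean of the rest.

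The main comparison asked how microRNA levels in ER-alpha KO embryos differed from those in wild-type embryos. Over the whole table, 0 of the 229 microRNAs (0% called) passed an adjusted p of 0.05 by limma, with 10 under an unadjusted p of 0.05. With ordinary variances per assay 0 passed too, and 9 had an unadjusted p under 0.05. The median log2 fold change of all 229 assays was 0.26, and that of the 7 members was -0.16, with 3 members above 0.26 and 4 below it. The members include mmu-miR-188-5p and rno-miR-532-5p, chosen for opposite directions in this comparison, so nothing is read from this split. Without wild-type replicate 1 the median of all assays was -0.03 and that of the members 0.19, with 5 members above the median of all.

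The level of mmu-miR-188-5p was -0.97 and 0.06 log2 units in ER-alpha KO samples, against -2.98 and -1.02 in wild-type samples. The knockout values lay above the wild-type ones, with 0.05 log2 units between the nearest samples, -0.97 in ER-alpha KO replicate 1 and -1.02 in wild-type replicate 2. In uncentred Ct that knockout sample (29.2) was later than that wild-type sample (28.4), so the groups overlapped. Levels of this assay had an SD of 0.73 in ER-alpha KO and 1.39 in wild-type samples (n = 2 each). The limma standard error of 0.64 was shared by all tested assays and does not measure the spread of this one. The log2 fold change was 1.55 (2.92-fold) and 0.23 without wild-type replicate 1. It was 2.64 without wild-type replicate 2, 2.05 without ER-alpha KO replicate 1 and 0.95 without ER-alpha KO replicate 2. The fold change therefore stayed positive under each omission, but its size ranged from 0.23 to 2.64. This member was chosen for being higher in ER-alpha KO, so the kept sign lends no support.

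The level of rno-miR-532-5p was -2.34 and -3.36 log2 units in ER-alpha KO samples, against 1.02 and -3.45 in wild-type samples. Both knockout samples stood between the wild-type samples, so the groups overlapped. The log2 fold change was -1.63 (0.323-fold); leaving out wild-type replicate 1 gave 0.27, and leaving out wild-type replicate 2 gave -3.75. The direction of this assay rested on wild-type replicate 1.

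The mouse-named assay of the same microRNA name, mmu-miR-532-5p, had levels of 3.23 and 2.73 log2 units in ER-alpha KO samples, against 1.97 and 2.46 in wild-type samples. The groups did not overlap in centred levels, though they did in uncentred Ct, and the log2 fold change was 0.77 (0.19 without wild-type replicate 1). Its 3p arm had levels of -1.33 and -0.64 in ER-alpha KO samples, against -0.99 and -0.66 in wild-type samples. Those groups overlapped, and the log2 fold change of mmu-miR-532-3p was -0.16. It was -0.65 without wild-type replicate 1, 0.12 without wild-type replicate 2, 0.18 without ER-alpha KO replicate 1 and -0.58 without ER-alpha KO replicate 2, so its sign turned with the sample left out. Scaling to the small-RNA controls (0.12) or no normalization (0.13) shifts all assays alike, and relative to the median of all assays the value was -0.42 in each case.

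Levels of mmu-miR-362-3p were -2.94 and -3.28 log2 units in ER-alpha KO samples, against -4.01 and -4.03 in wild-type samples. In centred levels the gap between the groups exceeded the differences within them, of 0.34 log2 units between the knockout and 0.02 between the wild-type replicates. In uncentred Ct it did not: the knockout samples stood at 31.1 and 31.1, against 33.2 and 31.4 in wild-type samples. In wild-type replicate 1 this well lay near a whole cycle once the shared constant was off. A difference as small as 0.02 is therefore not resolved there. For mmu-miR-362-3p the log2 fold change was 0.91, and 0.59 without wild-type replicate 1. When the median of all assays was taken off, this assay had 0.64 with all samples and 0.62 without that one. It was the cluster member whose difference changed least relative to that median when wild-type replicate 1 was left out, and as with every member it did not pass the limma test over the 229 assays.

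The related miR-500 and miR-501-3p stood lower in ER-alpha KO than in wild-type embryos by their means. Levels of mmu-miR-500 were -3.38 and -3.34 log2 units in ER-alpha KO samples, against -2.00 and -3.28 in wild-type samples. In centred levels the groups did not overlap, but wild-type replicate 2 was 0.07 log2 units from the nearest knockout sample. In uncentred Ct they overlapped, with ER-alpha KO replicate 2 (31.17) earlier than wild-type replicate 1 (31.24). Levels of mmu-miR-501-3p were -3.17 and -3.02 in ER-alpha KO samples, against -2.04 and -3.42 in wild-type samples, and overlapped. The log2 fold change of mmu-miR-500 was -0.72, and -0.42 with wild-type replicate 1 left out. That of mmu-miR-501-3p was -0.37, and -0.0048 with that sample left out. Within a sample these assays read almost alike. The Ct of mmu-miR-500 minus that of mmu-miR-501-3p was 0.21 and 0.32 cycles in ER-alpha KO samples, against -0.03 and -0.15 in wild-type samples. Both wells of wild-type replicate 1 lay near a whole cycle once the shared constant was off, so the -0.03 is not resolved there.

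**Figure D3:**
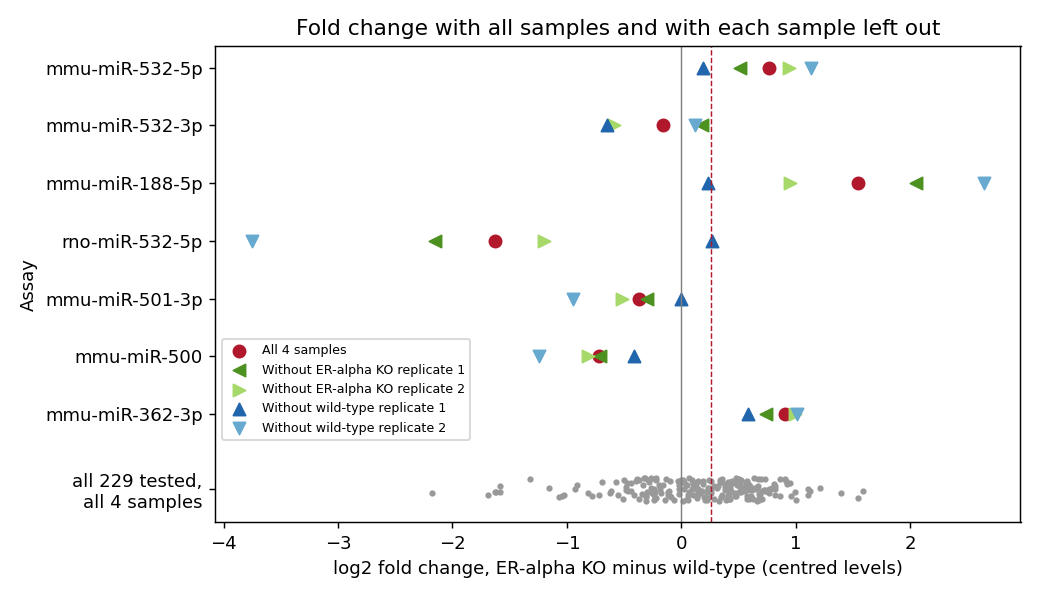
Log2 fold change of ER-alpha KO minus wild-type for each detected cluster assay, with all 4 samples (red circles) and with each sample left out in turn (triangles); the grey points are all 229 tested assays and the dashed line their median of 0.26. Without wild-type replicate 1 rno-miR-532-5p stands at 0.27, against -1.63 with all samples, and mmu-miR-188-5p at 0.23, against 1.55.

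Among the 7 members, 3 (mmu-miR-188-5p, mmu-miR-362-3p and mmu-miR-532-5p) had the centred levels of both knockout samples above those of both wild-type samples, which 33.2% of the 229 assays did. The opposite order was seen in 1 member, mmu-miR-500, and in 6.11% of all assays. A log2 fold change above 1 was reached by 1 member against 3.49% of all assays, and one below -1 by 1 member against 4.8%. These are mmu-miR-188-5p and rno-miR-532-5p, whose values led to the choice of the cluster, and nothing is read from those counts.

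The place of wild-type replicate 1 in these differences was measured member by member. Its level minus the mean of the other 3 samples was -2.34 log2 units for mmu-miR-188-5p, the lowest value of the 229 assays. It was 4.07 for rno-miR-532-5p, where 1 of the 229 assays had a higher value. For mmu-miR-500 it was 1.33 and for mmu-miR-501-3p 1.17, against -0.84 for mmu-miR-532-5p, -0.59 for mmu-miR-362-3p and -0.11 for mmu-miR-532-3p. The first pair are the members whose genotype differences led to the choice of the cluster, so these extremes are a description. The part of that sample's whole-cycle readings in these departures was not tested.

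**Figure D4:**
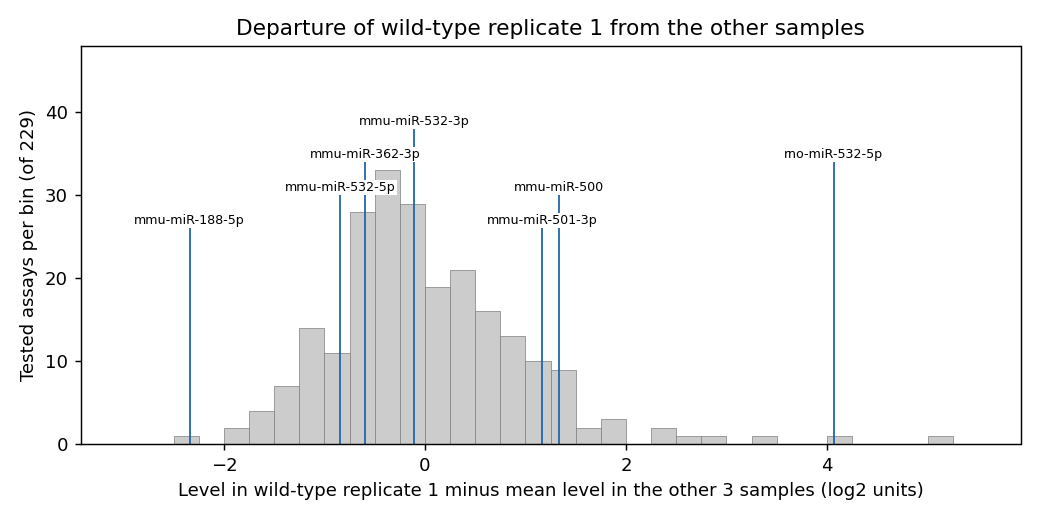
Histogram over the 229 tested assays of the level in wild-type replicate 1 minus the mean level in the other 3 samples (log2 units), with the 7 cluster assays marked by lines whose heights carry no value. The members run from -2.34 (mmu-miR-188-5p) at the left edge of the histogram to 4.07 (rno-miR-532-5p) near its right edge.

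Profiles over the 4 samples were compared after taking each assay's own mean off, with the largest difference in any sample as the measure (smaller is more alike). The most alike of the 21 pairs of members were mmu-miR-500 and mmu-miR-501-3p at 0.23, followed by mmu-miR-362-3p and mmu-miR-532-5p at 0.33. The least alike were mmu-miR-188-5p and rno-miR-532-5p at 4.81, and the mouse and rat assays of miR-532-5p were at 3.68. The median was 1.51 over the pairs of members and 0.81 over all pairs of tested assays. The pairs of members include mmu-miR-188-5p and rno-miR-532-5p, chosen by their values, so nothing is read from that difference.

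The 3 nearest assays outside the cluster were taken from far more candidates than there are members. A closer assay outside the cluster is therefore not read as a result. For mmu-miR-532-5p the 3 nearest were mmu-miR-542-3p (0.09), mmu-miR-223 (0.11) and mmu-miR-224 (0.12). For mmu-miR-362-3p they were mmu-miR-431 (0.12), mmu-miR-493 (0.12) and mmu-miR-146b (0.15), and for mmu-miR-532-3p they were mmu-miR-132 (0.18), mmu-miR-135b (0.20) and mmu-miR-148b (0.24). For mmu-miR-501-3p they were mmu-miR-9 (0.20), mmu-miR-205 (0.26) and rno-miR-339-3p (0.26), and for mmu-miR-500 mmu-miR-666-5p (0.21), mmu-miR-99b (0.21) and rno-miR-339-3p (0.28). The members with the largest departures had more distant nearest assays. For mmu-miR-188-5p the nearest were mmu-miR-138 (0.57), mmu-miR-543 (0.65) and mmu-miR-92a (0.71). For rno-miR-532-5p they were mmu-miR-199a-5p (0.58), mmu-miR-181c (0.94) and mmu-miR-376b (1.23).

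Other microRNAs encoded on chromosome X gave a background for the location of the cluster. Of 52 such assays, on a list drawn up by name that may leave some out, 20 were tested and 0 passed the limma test. The tested ones had a median log2 fold change of 0.35, beside 0.26 for all assays, with 11 above and 9 below 0.26. Without wild-type replicate 1 the median was 0.05, beside -0.03 for all assays. The largest differences on that list were 1.59 for mmu-miR-98, a let-7 relative, and -1.32 for rno-miR-450a. The mouse-named assay mmu-miR-450a-5p had 0.11, while the name rno-miR-450a gives no arm.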

How the data were processed

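The authors deposited 1 threshold cycle (Ct) for each TaqMan well, per the file headers, read on an Applied Biosystems 7900HT over 40 cycles, per the labels' protocols. The threshold, baseline and any normalization by the authors are not given in the sources used here. Undetermined wells, and wells of wild-type replicate 1 above 40, were taken as not amplified, and the 4 U6 wells were averaged. MicroRNAs with a Ct of 35 or lower in all 4 samples (229) were centred per sample on their median Ct (28.2 and 27.8 in ER-alpha KO, 29.2 and 27.4 in wild-type samples) and tested with limma 3.58.1 in R 4.3.3 (lmFit, eBayes, two-sided, group only; Benjamini-Hochberg over all 229). The estimated prior weight was infinite, which gives all assays the same standard error. The procedure was run on simulated levels with normal noise, the same SD for all assays of a sample and no whole-cycle readings. That run cannot check the shared standard error for these data. Only 2 samples per group limit the precision. Tables were made with Python 3.11.15 and pandas 2.3.3, plots with matplotlib 3.10.9.

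The cluster, the lists and the alternatives were chosen with earlier results of these data known. Named were all cluster assays, the 3 assays outside the cluster most alike to each, and the 2 largest differences on the chromosome X list. The mouse-named assay beside rno-miR-450a was added to these. Sequences are RefSeq's (GRCm38.p6). Samples with the same replicate number deviated together (r = 0.37 across assays), but the labels do not say what a number marks and there are only 2 of them, so no pairing was assumed.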

Additional observations from a re-analysis of the deposited data

How the results depend on the processing

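With all samples kept, 0 microRNAs passed limma's adjusted p of 0.05 under each alternative except with the replicate number as a replicate block, which called 1 (mmu-miR-324-3p, no cluster member; limma adjusted p = 0.00578); the cause was not tested. Leaving out each sample in turn gave a count of 0 each time, with a smallest limma adjusted p from 0.0985 (without wild-type replicate 2, 68 microRNAs under an unadjusted p of 0.05) to 0.949 (without wild-type replicate 1, 4). A group then holds 1 sample, which is assumed to vary like the other group. The block and the missing filter cannot change a member's fold change and are not counted in what follows; control scaling, no normalization and average-profile centring add the same shift to every assay. Directions of mmu-miR-188-5p and mmu-miR-362-3p held in 9 of 9 alternatives, and those of mmu-miR-500, mmu-miR-501-3p and mmu-miR-532-5p in 10 of 10. That of rno-miR-532-5p held in 9 of 10, and that of mmu-miR-532-3p in 6 of 10. For mmu-miR-501-3p this counts -0.0048 without wild-type replicate 1. Relative to the median of all assays its value was -0.63 with all samples and 0.03 without that one. The alternatives reuse the same samples, mmu-miR-188-5p and rno-miR-532-5p were chosen by these values, and mmu-miR-532-5p was named with them. The counts therefore lend no support. At a Ct limit of 32, 5 of the 8 cluster assays were detected in all samples, against 7 at 35 and at 38, and mmu-miR-188-5p and mmu-miR-362-3p had no value there. Scaling to the 5 controls put the median of all assays at 0.54, against 0.26 in the main analysis, 0.05 with quantile normalization and -0.05 with average-profile centring; the Ct of the control U87 itself spanned 2.18 cycles over the samples. Taking the constant off wild-type replicate 1 gave 1.46 for mmu-miR-188-5p and -1.72 for rno-miR-532-5p.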

Other observations

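The seed of mmu-miR-362-3p is also held by mmu-miR-329-3p of chromosome 12 (chr12:109713541-109713562, plus strand, GRCm38.p6), and the pair is printed to show the shared bases in capitals.
mmu-miR-362-3p: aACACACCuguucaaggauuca
mmu-miR-329-3p: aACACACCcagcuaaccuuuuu
The assay mmu-miR-329, whose name gives no arm, had a Ct of 31.1 and 33.5 in ER-alpha KO samples, against 33.2 and 31.0 in wild-type samples. Those groups overlapped. Its log2 fold change was -0.48, beside 0.91 for mmu-miR-362-3p, and this assay was looked at after its values could be seen.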
